A study of Mus musculus with 18 samples.

Results

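The 10 genes described here encode the surface molecules with which antigen-presenting cells costimulate or restrain T cells. They were chosen by gene symbol, and all 10 were found by Ensembl identifier among the 49585 genes of the count table. That table covers all 18 libraries. In leukocytes sorted after inflammation of the joint or the skin, Icosl was higher in cells that had migrated to the draining lymph node than in cells that had stayed in the tissue, at both sites. Cd274 was highest in cells that had stayed in inflamed skin, with no overlap with the libraries of any other group. In the draining nodes, 9 of the 10 genes were called higher in cells arriving from inflamed tissue than in steady-state node libraries. Inflammation and the handling of the steady-state mice or cells cannot be told apart in that comparison. Among the 9, Cd70 had at most 1 read in each steady-state library and could be tested only through the migrated libraries, where it was high. Icosl was not called at either node, though in the skin node every migrated library was above every steady-state one.

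T cells respond to antigen fully only when a further signal accompanies the peptide and MHC complex. Members of the B7 family give that signal through CD28 and ICOS or oppose it through CTLA-4 and PD-1, and ligands of the TNF superfamily add to it through receptors such as OX40, 4-1BB and CD27. In lymph nodes these ligands are best known from mature dendritic cells and B cells, and macrophages and other myeloid cells in inflamed tissue also carry several of them.

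Cd80 (ENSMUSG00000075122, chr16:38455561-38496335, plus strand) and Cd86 (ENSMUSG00000022901, chr16:36603869-36666081, minus strand) encode the B7 proteins that bind CD28 and CTLA-4. Icosl (ENSMUSG00000000732, chr10:78069302-78083913, plus strand) encodes the ligand of ICOS. Cd274 (ENSMUSG00000016496, chr19:29367455-29388095, plus strand) encodes PD-L1 and its neighbour Pdcd1lg2 (ENSMUSG00000016498, chr19:29410919-29471161, plus strand) encodes PD-L2, which both bind the inhibitory receptor PD-1. Cd40 (ENSMUSG00000017652, chr2:165055627-165072948, plus strand) encodes CD40, itself a TNF receptor family member, through which CD40 ligand on T cells licenses antigen-presenting cells. Cd70 (ENSMUSG00000019489, chr17:57145997-57149777, minus strand) encodes the ligand of CD27, Tnfsf4 (ENSMUSG00000026700, chr1:161395409-161418410, plus strand) encodes OX40 ligand and Tnfsf9 (ENSMUSG00000035678, chr17:57105325-57107757, plus strand) encodes 4-1BB ligand. Cd200 (ENSMUSG00000022661, chr16:45382135-45409053, minus strand) encodes a membrane glycoprotein that restrains myeloid cells through the CD200 receptor. Positions are those of GENCODE release M21 on GRCm38, the mm10 assembly, and each value below is a count over all exons of the gene. An exon of Cd274 overlaps an unnamed transcript on the opposite strand and an exon of Tnfsf9 overlaps Gm11110 on the opposite strand. The study's methods state HTSeq's default settings, which count by strand, but the sources used here do not say whether the libraries kept the strand, so reads of each pair may not have been told apart.

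The study asked which leukocytes leave an inflamed joint and what distinguishes them from those that remain. It used mice of the strain Kaede, whose cells carry a transgenic fluorescent protein that ultraviolet light turns permanently from green to red. Mice aged 6 to 10 weeks received OT-II CD45.1 T cells that had been polarized in culture to a Th1 phenotype, were immunized with 100 µg OVA in complete Freund's adjuvant, and 10 days later were challenged with 100 µg heat-aggregated ovalbumin (HAO) in the footpad or in the ear pinna. The tissue was photoconverted on day 3 and harvested 24 hours later, and viable CD45+ Kaede red+ cells were sorted, so that red cells in the ankle joint or ear had stayed (nonmigrated) and red cells in the draining node had left the tissue (migrated). The 4 inflamed groups are thus named joint or skin, and nonmigrated or migrated. The other two groups, joint steady state and skin steady state, are lymph node leukocytes that the labels describe as migrated from joint or ear at steady state. Sample titles carry "PBS" and "KG" for the joint node and "Naive" for the skin node, and the labels do not say which of the cell transfer, immunization and photoconversion steps these mice had, although the protocol given for all samples describes a Kaede red+ sort. Each group had 3 libraries. The study's methods describe replicates of the inflamed groups as pools of 8 to 18 matched male and female mice, so that a p-value measures the spread between pools. The sort did not separate cell types, and in these bulk libraries fewer cells of a type and less RNA per cell cannot be told apart.

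Reads assigned to genes numbered 19239531 to 22528895 in the 6 inflamed skin libraries and 28577566 to 43814403 in the other 12. The share of reads that HTSeq assigned to no feature was 0.0925% to 0.135% in the former and 0.227% to 0.562% in the latter, so that site and library make-up cannot be told apart in the inflamed groups. Ptprc, which encodes CD45, was at 1156 to 2531 CPM (counts scaled to a common library size by the trimmed mean of M-values, TMM) in all 18 libraries. The summed CPM of 5 markers of mature migratory dendritic cells (Ccr7, Fscn1, Ccl22, Cacnb3 and Socs2) ranged from 116 to 169 in joint nonmigrated and from 432 to 1842 in skin nonmigrated cells. In migrated cells it ranged from 2820 to 7404 (joint) and from 5696 to 8047 (skin), and in steady-state nodes from 465 to 775 (joint) and from 471 to 581 (skin). The summed CPM of 5 macrophage and monocyte markers was 16009 to 19633 in joint nonmigrated, 2231 to 9424 in skin nonmigrated and 45.1 to 517 in the 12 node libraries. That of 5 B cell markers was 2478 to 4398 in the steady-state nodes, 719 to 945 in joint migrated, 142 to 228 in skin migrated and 10.5 to 227 in the tissues. In each of the 6 groups every marker of these 3 lists had more than 3 counts in at least 1 library. The summed CPM of 5 neutrophil markers was 4742.5 to 14486 in joint nonmigrated, 1391 to 2475.5 in skin nonmigrated, 31.6 to 82.2 in joint migrated and 12.3 to 25.1 in skin migrated cells. It was 384 to 743 in the joint and 10.4 to 17.1 in the skin steady-state node, and Ly6g of this list was at or below 3 counts in every skin node library. The part of these cell types in the differences described below was not tested.

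In 2 groups, 1 replicate stood apart across the ligand genes. Joint migrated replicate 1 had a summed mature dendritic cell marker level of 2820 CPM against 6275 and 7404 in the other replicates, and was the lowest of its group for all 10 ligand genes. Skin nonmigrated replicate 3 had 9424 CPM of macrophage markers against 3238 and 2231, 432 CPM of mature dendritic cell markers against 1225 and 1842, and 248 CPM of T cell markers against 603 and 665. It too was the lowest of its group for all 10 genes. Results that turn on either library are given with and without it. Joint nonmigrated replicates 1 to 3 also differed in marker levels. Neutrophil markers summed to 4742.5, 8661 and 14486 CPM and B cell markers to 99.9, 106 and 227 CPM.

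RefSeq promoters were found for 5 of the 10 genes. Those of the 4 among them that were called by site or by migration in the tests below are shown here, as the bases before the RefSeq transcription start that lie in no annotated exon (RefSeq GRCm38.p6). Capitals mark matches to the NF-kB (kappaB) consensus. For Cd274 the shown stretch stops where an exon of the neighbouring gene Plgrkt begins, and for Icosl where its own annotated exon begins.
Cd274, chr19:29367391-29367437, plus strand: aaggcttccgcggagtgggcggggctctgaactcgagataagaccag
Pdcd1lg2, chr19:29410669-29410918, plus strand: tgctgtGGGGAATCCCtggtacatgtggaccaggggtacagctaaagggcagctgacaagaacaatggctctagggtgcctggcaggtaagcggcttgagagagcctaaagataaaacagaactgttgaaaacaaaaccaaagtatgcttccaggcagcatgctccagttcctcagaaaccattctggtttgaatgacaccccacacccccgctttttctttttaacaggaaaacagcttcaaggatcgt
Cd200, chr16:45409054-45409303, minus strand: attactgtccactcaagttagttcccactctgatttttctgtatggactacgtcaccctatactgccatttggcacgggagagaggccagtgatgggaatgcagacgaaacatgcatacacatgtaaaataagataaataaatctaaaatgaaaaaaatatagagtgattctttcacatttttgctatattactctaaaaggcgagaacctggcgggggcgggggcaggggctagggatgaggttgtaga
Icosl, chr10:78069118-78069301, plus strand: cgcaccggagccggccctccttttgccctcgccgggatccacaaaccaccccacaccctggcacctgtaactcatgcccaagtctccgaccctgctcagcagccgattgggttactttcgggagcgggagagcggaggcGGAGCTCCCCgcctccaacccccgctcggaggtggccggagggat
Within the 250 bases before the start, on both strands, Pdcd1lg2 had a match to the NF-kB consensus beginning 244 bases before the start and Icosl had 1 beginning 111 bases before it. Such a match occurred in 7.25% of 32851 RefSeq promoter windows of the same length. The interferon-activated GAS motif (TTCNNNGAA) was in none of the 5 windows and in 7.02% of all, and the AP-1 motif (TGANTCA) was in that of Cd80 alone, 42 bases before the start, and in 6.75% of all. No match says only that these letters are not in the window.

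Levels were first set side by side within each group as CPM per kb of exon, the scale on which genes can be compared. Cd274 led in all 4 inflamed groups, at a mean of 769.8 ± 292.7 (SD, n = 3) in skin nonmigrated, 124.3 ± 15.7 in skin migrated, 95.2 ± 43.6 in joint migrated and 80.5 ± 8.4 in joint nonmigrated cells. It held 73.9% to 82.1% of the summed CPM per kb of the 10 genes in skin nonmigrated libraries and 29.0% to 49.8% in the other inflamed libraries. In the steady-state nodes Icosl led, at 55.3 ± 2.4 in the joint node and 46.5 ± 7.9 in the skin node, and held 44.4% to 51.4% of the sum, with Cd274 next at 22.2 ± 1.6 and 19.7 ± 0.8. Tnfsf9 ranked second in joint nonmigrated cells at 30.9 ± 7.8 CPM per kb, and Pdcd1lg2 ranked second in skin nonmigrated cells at 62.6 ± 25.2. Tnfsf4 and Cd70 were the lowest in every group, with Cd70 at 0.00888 to 2.20 CPM per kb.

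**Figure D1:**
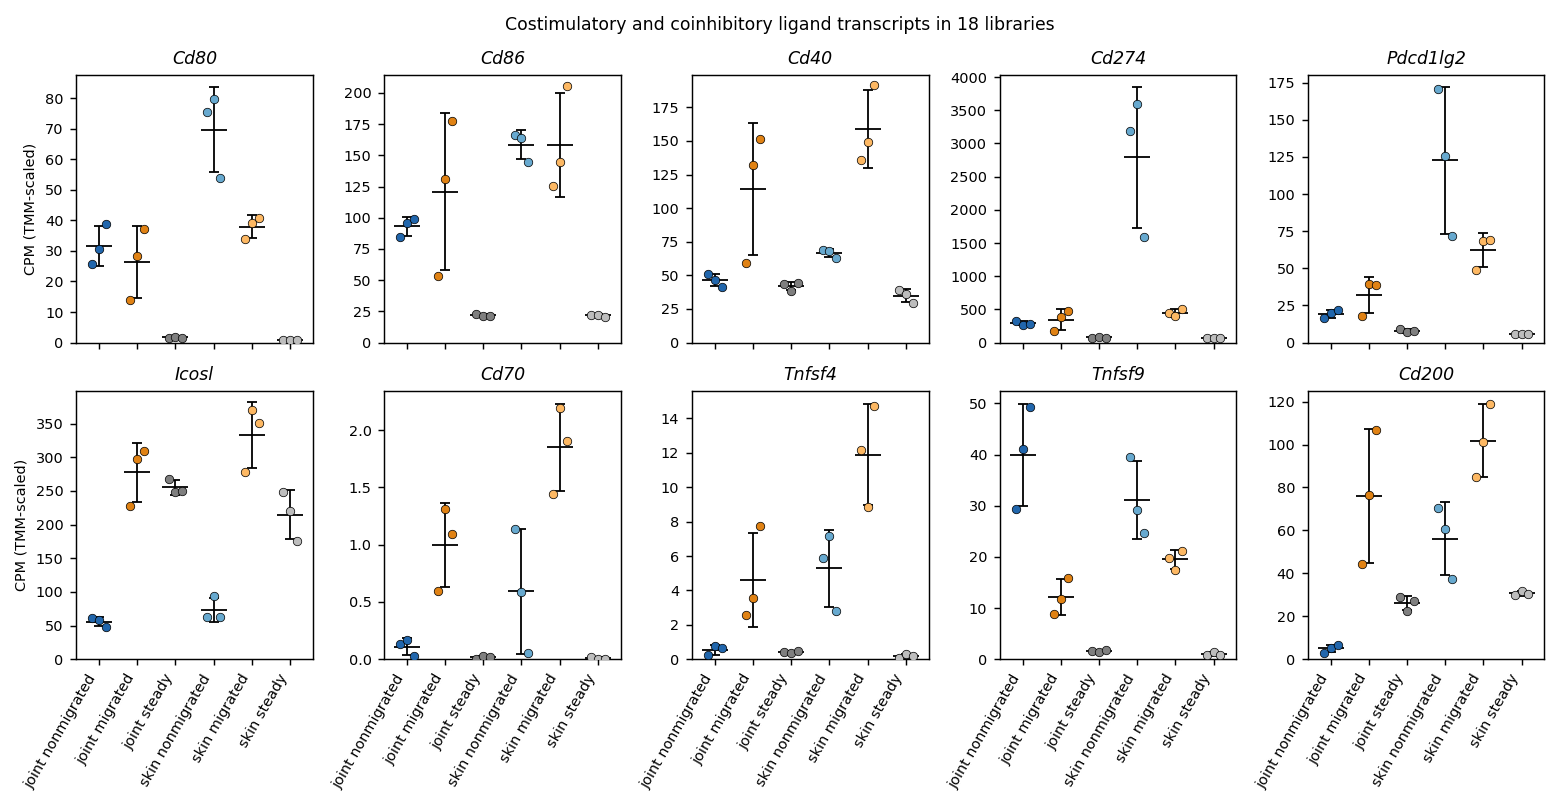
CPM (TMM-scaled, linear axes from 0) of the 10 ligand genes in each of the 18 libraries, with 1 panel per gene. Coloured points are the 3 replicates of each group and the bars are the mean and SD. Cd274 and Pdcd1lg2 are highest in skin nonmigrated cells, Icosl is higher in the 4 lymph node groups than in the 2 tissue groups, and Tnfsf9 has its highest mean in joint nonmigrated cells, overlapping skin nonmigrated cells.

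The first question was how the ligands differed between cells that had migrated and cells that had stayed. Calls required an adjusted p under 0.001 together with a log2 fold change beyond 1 in either direction (edgeR's quasi-likelihood test on the 12 inflamed libraries, Benjamini-Hochberg adjustment over all 16777 genes tested). In the joint, 3 of the 10 ligands were higher in migrated cells (Icosl, Tnfsf4 and Cd200) and 1 was lower (Tnfsf9), against 8.8% of all genes tested called higher, 12.6% called lower and 21.4% called in all. In the skin, Icosl was higher and Cd274 lower in migrated cells, 2 of the 10, against 8.49% of all genes called higher, 12.4% lower and 20.9% in all. At an adjusted p under 0.05, the threshold in the study's methods, 6 ligands were called in the joint and 3 in the skin, against 34.3% and 35.4% of all genes. The median log2 fold change of the 10 was 1.01 in the joint and 0.42 in the skin, against 0.02 and 0.01 over all genes tested.

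Among the B7 ligands that costimulate, Icosl, the ligand of ICOS, was at 60.8, 58.7 and 48.3 CPM in joint nonmigrated and 228, 297 and 309 CPM in joint migrated cells. It was at 62.8, 93.8 and 62.1 CPM in skin nonmigrated and 278, 369.9 and 351 CPM in skin migrated cells. Every migrated library lay above every nonmigrated library of either site, and migrated replicate 1 was the lowest of its group at both. Icosl rose 4.98-fold in the joint, a log2 fold change of 2.32 (SE 0.20, adjusted p = 2.96e-06), and 4.55-fold in the skin, 2.19 (SE 0.20, adjusted p = 4.09e-06). It was called under all alternatives run for these comparisons.

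Cd80, the B7 protein that binds CTLA-4 most tightly, was at 25.7, 30.5 and 38.8 CPM in joint nonmigrated and 13.9, 28.3 and 37.3 CPM in joint migrated cells, and these ranges overlapped. It was at 75.5, 79.7 and 53.7 CPM in skin nonmigrated and 33.9, 39.1 and 40.9 CPM in skin migrated cells, where every nonmigrated library was higher. The log2 fold change was -0.26 (SE 0.30, adjusted p = 0.485) in the joint and -0.88 (SE 0.30, adjusted p = 0.0245) in the skin, and neither was called. Without joint migrated replicate 1 the joint value was 0.07. Cd86, its partner B7 protein, was at 84.7, 95.7 and 99.3 CPM in joint nonmigrated and 53.2, 131 and 178 CPM in joint migrated cells, with the migrated replicates on either side of the nonmigrated ones. It was at 167, 164 and 145 CPM in skin nonmigrated and 126, 145 and 206 CPM in skin migrated cells, again overlapping. Its log2 fold changes were 0.37 (SE 0.33, adjusted p = 0.357) and -0.00 (SE 0.33, adjusted p = 0.992), with 95% intervals of -0.35 to 1.10 and -0.73 to 0.72.

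The PD-1 ligands moved differently. Cd274, which encodes PD-L1, was at 3183, 3594 and 1587 CPM in skin nonmigrated and 439.7, 399 and 511 CPM in skin migrated cells. The lowest nonmigrated library, replicate 3, was still above every migrated library. Cd274 fell 6.22-fold with migration in the skin, -2.64 (SE 0.37, adjusted p = 0.000103) on the log2 scale. When replicate number was added to the fit, Cd274 was not called (-2.56, adjusted p = 0.00128). In the joint it was at 326, 269 and 279.9 CPM in nonmigrated and 173, 379 and 483 CPM in migrated cells, and the migrated replicates lay on both sides of the nonmigrated ones. The joint log2 fold change was 0.24 (SE 0.35, adjusted p = 0.577) with a 95% interval of -0.52 to 1.01, and it was -0.06 without joint migrated replicate 3. Pdcd1lg2, which encodes PD-L2, was at 170.5, 126 and 71.7 CPM in skin nonmigrated and 49.0, 68.7 and 68.8 CPM in skin migrated cells. The groups did not overlap, and the log2 fold change of -0.98 (SE 0.33, adjusted p = 0.024) was not called. It was at 16.5, 19.6 and 22.2 CPM in joint nonmigrated and 17.9, 39.2 and 38.9 CPM in joint migrated cells, which overlapped, at 0.72 (SE 0.33, adjusted p = 0.0854).

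Among the TNF superfamily ligands and CD40, Tnfsf9, which encodes 4-1BB ligand, was the only 1 that fell in the joint. It was at 29.4, 41.1 and 49.3 CPM in joint nonmigrated and 8.83, 11.9 and 15.8 CPM in joint migrated cells, with no overlap. Tnfsf9 fell 3.27-fold, -1.71 (SE 0.25, adjusted p = 0.000149) on the log2 scale, and was not called without joint migrated replicate 2 (adjusted p = 0.00121, the highest of 9.03e-10 to 0.00121 over the alternatives). In the skin it was at 39.5, 29.2 and 24.7 CPM in nonmigrated and 19.8, 17.5 and 21.2 CPM in migrated cells, apart but not called at -0.68 (SE 0.25, adjusted p = 0.0352).

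Tnfsf4, which encodes OX40 ligand, was at 0.219, 0.797 and 0.632 CPM in joint nonmigrated and 2.59, 3.55 and 7.74 CPM in joint migrated cells. Every migrated library was above every nonmigrated one, though the nonmigrated values rest on only 8, 24 and 21 reads. Tnfsf4 rose 8.49-fold in the joint, 3.09 (SE 0.55, adjusted p = 0.000587). This call was lost when any 1 of the joint nonmigrated libraries, joint migrated replicate 2 or joint migrated replicate 3 was left out (adjusted p of 0.00132 to 0.00293) and in a fit of the 6 joint libraries alone (0.00246), with a range of 3.36e-08 to 0.00293 over all alternatives. Tnfsf4 was also not called in the joint when replicate number was added to the fit (3.06, adjusted p = 0.0014). In the skin it was at 5.88, 7.19 and 2.81 CPM in nonmigrated and 12.2, 8.84 and 14.7 CPM in migrated cells, apart but not called at 1.17 (SE 0.49, adjusted p = 0.059).

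Cd40 was at 51.0, 46.8 and 41.6 CPM in joint nonmigrated and 58.9, 132 and 152 CPM in joint migrated cells. It was at 69.0, 68.1 and 63.1 CPM in skin nonmigrated and 135, 149 and 191 CPM in skin migrated cells. All migrated libraries of a site were above all its nonmigrated libraries, by a log2 fold change of 1.30 (SE 0.27, adjusted p = 0.00176) in the joint and 1.25 (SE 0.27, adjusted p = 0.00227) in the skin, and neither passed 0.001 though both passed 0.05. Without joint migrated replicate 1 the joint value was 1.62 (adjusted p = 1.59e-05, within 1.59e-05 to 0.0107 over the alternatives), which was called. Cd70, the ligand of CD27, was counted 5, 5 and 1 times in joint nonmigrated and 29, 56 and 51 times in joint migrated cells. It was counted 19, 10 and 1 times in skin nonmigrated and 31, 44 and 43 times in skin migrated cells. Its log2 fold changes were 3.13 (SE 0.76, adjusted p = 0.00448) and 1.65 (SE 0.68, adjusted p = 0.0556), neither called, and Cd70 passed the filter on low counts through the migrated libraries, where it was highest.

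Cd200, the ligand of the inhibitory CD200 receptor on myeloid cells, was at 3.12, 5.45 and 6.65 CPM in joint nonmigrated and 44.5, 76.6 and 107 CPM in joint migrated cells. The groups did not overlap, and Cd200 had the largest fold change of the 10 in this comparison, 15.0-fold or 3.91 (SE 0.38, adjusted p = 7.48e-06). In the skin it was at 70.4, 60.7 and 37.5 CPM in nonmigrated and 84.9, 101 and 119 CPM in migrated cells, apart but not called at 0.85 (SE 0.34, adjusted p = 0.0484).

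**Figure D2:**
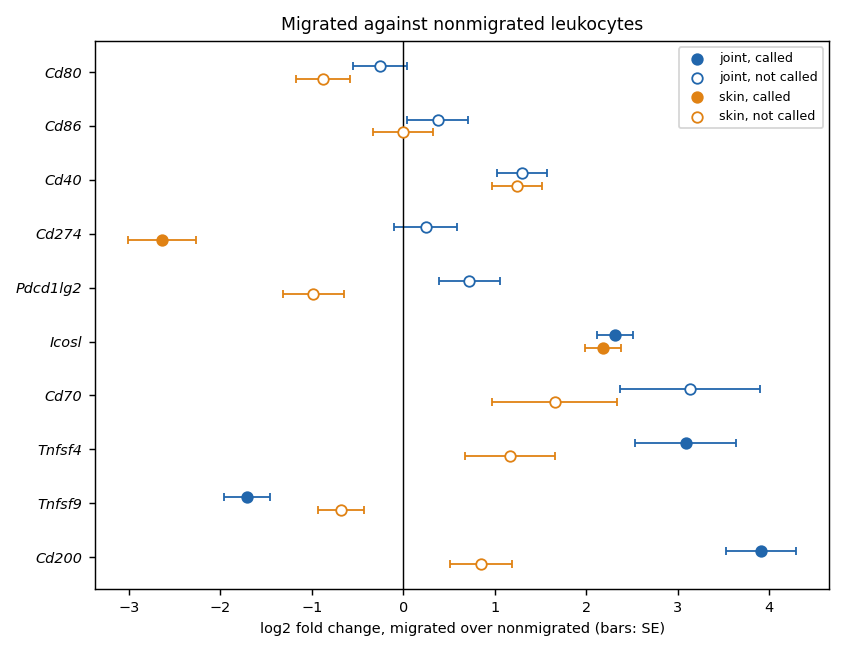
Log2 fold change of migrated over nonmigrated cells for each ligand gene, in the joint (blue) and the skin (orange), with bars for the SE of the edgeR fit. Filled points passed an adjusted p under 0.001 with a log2 fold change beyond 1, and Icosl is the only gene filled to the right of 0 at both sites.

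The second question was whether the site of inflammation mattered. Among nonmigrated cells, 3 of the 10 ligands were called, all lower in the joint than in the skin (Cd274, Pdcd1lg2 and Cd200), against 1.9% of all genes called lower in the joint and 3.05% called in either direction. At an adjusted p under 0.05 Cd80 and Tnfsf4 joined them, 5 of 10 against 14.3% of all genes. From the values given above, 8 of the 10 had groups that did not overlap, Cd70 and Tnfsf9 being the exceptions. Non-overlap was not counted over all genes. By edgeR, 6794 of the 16777 genes tested had an unadjusted p under 0.05, as did 7 of the 10 ligands. Tnfsf9 was the only gene of the 10 with a higher mean in the joint.

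Cd274 was 9.60-fold higher in skin than in joint nonmigrated cells, a log2 fold change of -3.26 (SE 0.38, adjusted p = 0.000232) for joint over skin. Pdcd1lg2 was 6.33-fold higher in the skin, -2.66 (SE 0.35, adjusted p = 0.000431). Cd200 was 11.1-fold higher in the skin, -3.48 (SE 0.38, adjusted p = 0.000154). The highest joint library stayed below the lowest skin library, replicate 3, for each gene: 326 against 1587 CPM for Cd274, 22.2 against 71.7 CPM for Pdcd1lg2 and 6.65 against 37.5 CPM for Cd200. Tnfsf4 was 9.71-fold higher in the skin at -3.28 (SE 0.56, adjusted p = 0.00184), and Cd80 2.20-fold at -1.14 (SE 0.30, adjusted p = 0.016), neither called at 0.001.

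These calls depend on how the spread was estimated. When replicate number was added to the fit, Pdcd1lg2 was not called (-2.70, adjusted p = 0.0014). In a fit of the 6 nonmigrated libraries alone no ligand was called (adjusted p = 0.00267 for Cd274, 0.00414 for Pdcd1lg2 and 0.00281 for Cd200), nor was any of the 15385 genes tested, while 5338 genes had an unadjusted p under 0.05. With 1 library left out, 0 to 4 ligands were called: none without joint nonmigrated replicate 2, only Cd200 without joint nonmigrated replicate 1, joint nonmigrated replicate 3 or skin nonmigrated replicate 1, Cd274 and Cd200 without skin nonmigrated replicate 2, and those 3 and Tnfsf4 without skin nonmigrated replicate 3. Over the alternatives the log2 fold change was -3.54 to -3.03 for Cd274 (adjusted p of 1.65e-17 to 0.00267), -2.93 to -2.35 for Pdcd1lg2 (1.82e-12 to 0.00414) and -3.72 to -3.21 for Cd200 (2.53e-19 to 0.00281). Macrophage markers summed to more in the joint, and the 3 keratinocyte markers Krt5, Krt14 and Krt10 summed to 23.3 to 272 CPM in skin nonmigrated libraries and at most 2.24 CPM in all others, all with Krt14 at or below 3 counts.

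Among migrated cells 0 of the 10 ligands were called between the sites by edgeR, as were 0% of all genes, and 0 of 10 were called at 0.05, against 1.14% of all genes. At an unadjusted p under 0.05 by edgeR there were 3 ligands (Pdcd1lg2, Tnfsf4 and Tnfsf9), against 2770 of 16777 genes. DESeq2 called 0 ligands, against 177 of 16777 genes. All 10 log2 fold changes were below 0, with a median of -0.49 against -0.002 over all genes tested. Groups did not overlap for 4 of the 10 (Pdcd1lg2, Cd70, Tnfsf4 and Tnfsf9), a count not made over all genes. The largest differences were -1.36 (SE 0.48, adjusted p = 0.18) for Tnfsf4 and -0.96 (SE 0.33, adjusted p = 0.173) for Pdcd1lg2. For Cd274 the value was -0.38 (SE 0.35, adjusted p = 0.628), with a 95% interval of -1.14 to 0.38, and for Cd200 it was -0.42 (SE 0.33, adjusted p = 0.574) with an interval of -1.15 to 0.31.

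**Figure D3:**
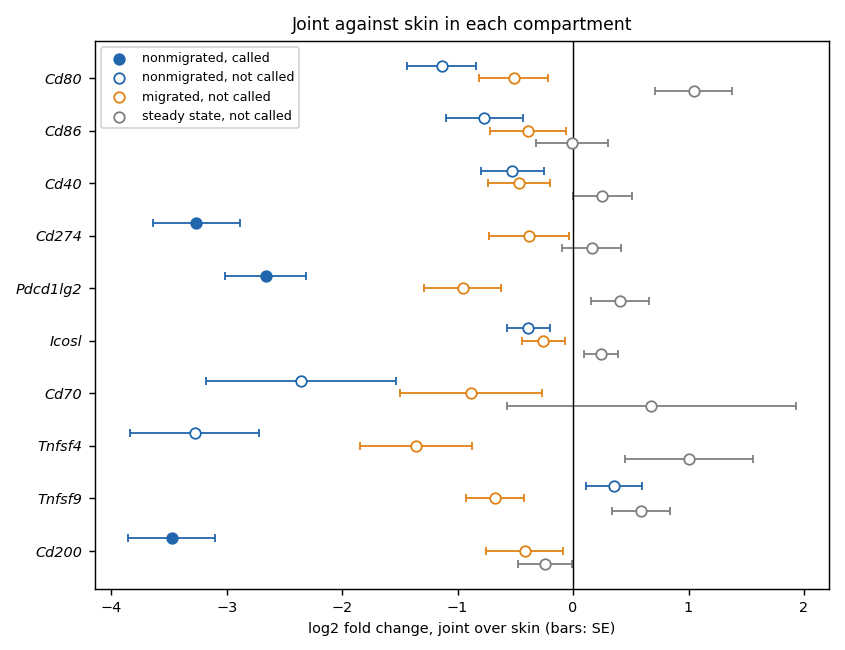
Log2 fold change of joint over skin for each ligand gene in nonmigrated cells (blue), migrated cells (orange) and steady-state lymph node cells (grey), with bars for the SE. The filled points are Cd274, Pdcd1lg2 and Cd200 in nonmigrated cells, and no point is filled in the other 2 comparisons. In the steady-state comparison, site cannot be told apart from what the titles PBS and KG (joint) and Naive (skin) stand for.

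Whether the difference between migrated and nonmigrated cells was unlike at the 2 sites was tested as the interaction of site and migration. By edgeR 0 of the 10 were called, against 0.119% of all genes. At an unadjusted p under 0.05 by edgeR there were 5 of 10, against 4407 of 16777 genes. DESeq2 called Cd274 and Cd200, against 661 of 16777 genes. At an adjusted p under 0.05, Cd274, Pdcd1lg2 and Cd200 passed, 3 of 10 against 6.13% of all genes. The joint change exceeded the skin change by 2.88 (SE 0.50, adjusted p = 0.0069) on the log2 scale for Cd274, by 1.71 (SE 0.47, adjusted p = 0.0471) for Pdcd1lg2 and by 3.06 (SE 0.49, adjusted p = 0.0048) for Cd200. For Icosl, which rose at both sites, the difference was 0.13 (SE 0.27, adjusted p = 0.79) with a 95% interval of -0.45 to 0.71. Tnfsf4 was at 1.92 (SE 0.72, adjusted p = 0.121) and Tnfsf9 at -1.03 (SE 0.35, adjusted p = 0.0927).

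The third comparison set the migrated cells of the inflamed nodes against the steady-state nodes, in a fit of the 12 lymph node libraries with 17107 genes tested. The labels do not say whether the steady-state cells, titled PBS and KG or Naive, were photoconverted. Inflammation therefore cannot be told apart here from how the mice were handled or which node cells were sorted. In the joint-draining node 9 of the 10 ligands were higher in inflamed migrated cells, against 12.4% of all genes called higher and 15.9% called in all. In the skin-draining node the same 9 were higher, against 16.6% called higher and 25.1% called in all. The count was 9 at both nodes also at an adjusted p under 0.05, against 24.2% and 36.5% of all genes. These counts include Cd70, which passed the filter on low counts only through the migrated libraries, where it was high. The median log2 fold change of the 10 was 2.31 in the joint node and 3.16 in the skin node, against -0.02 and 0.002 over all genes tested. The mature dendritic cell markers given above were higher and the B cell markers lower in every inflamed migrated library than in every steady-state library of its site.

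Icosl was the gene not called, at 268, 248 and 250.4 CPM in the joint steady-state and 248, 221 and 176 CPM in the skin steady-state libraries. Its joint ranges overlapped, with joint migrated replicate 1 below all 3 steady-state libraries, and its skin ranges did not. The log2 fold change was 0.16 (SE 0.15, adjusted p = 0.401) in the joint node, with a 95% interval of -0.16 to 0.47, and 0.66 (SE 0.15, adjusted p = 0.00148) in the skin node, where it missed both the limit on adjusted p and that on fold change.

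Cd80 and Cd86 were both higher in inflamed migrated cells. Cd80 was at 1.54, 1.89 and 1.62 CPM in the joint and 0.695, 0.88 and 0.856 CPM in the skin steady-state node, far below the lowest inflamed migrated library at 13.9 CPM. It rose 16.1-fold in the joint node, 4.01 (SE 0.29, adjusted p = 1.62e-07), and 47.9-fold in the skin node, 5.58 (SE 0.33, adjusted p = 1.12e-08). Cd86 was at 22.8, 21.2 and 21.7 CPM and 22.3, 22.5 and 20.8 CPM in the joint and skin steady-state nodes, with no overlap with the migrated cells. It rose 5.64-fold, 2.49 (SE 0.32, adjusted p = 2.59e-05), and 7.41-fold, 2.89 (SE 0.33, adjusted p = 4.7e-06).

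The PD-1 ligands also rose. Cd274 was at 77.0, 86.9 and 77.0 CPM in the joint and 72.6, 68.2 and 73.4 CPM in the skin steady-state node, below every inflamed library of either site. It rose 4.39-fold in the joint node, 2.13 (SE 0.26, adjusted p = 1.8e-05), and 6.44-fold in the skin node, 2.69 (SE 0.27, adjusted p = 1.52e-06). Pdcd1lg2 was at 8.92, 6.85 and 7.77 CPM and 6.01, 5.88 and 5.77 CPM, also below every inflamed library. It rose 4.17-fold, 2.06 (SE 0.25, adjusted p = 1.41e-05), and 10.8-fold, 3.43 (SE 0.26, adjusted p = 1.16e-07).

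The TNF superfamily ligands were at under 2 CPM in every steady-state library. Tnfsf9 was at 1.56, 1.42 and 1.73 CPM in the joint and 0.852, 1.39 and 0.856 CPM in the skin steady-state node. It rose 7.90-fold, 2.98 (SE 0.23, adjusted p = 3.05e-07), and 19.2-fold, 4.26 (SE 0.25, adjusted p = 1.27e-08). Tnfsf4 was at 0.4, 0.344 and 0.466 CPM and 0.0897, 0.324 and 0.183 CPM, below every migrated library. These values rest on 18, 14 and 21 reads in the joint and 4, 14 and 6 reads in the skin steady-state node, which limits the fold changes. It rose 11.6-fold, 3.53 (SE 0.44, adjusted p = 1.81e-05), and 60.1-fold, 5.91 (SE 0.49, adjusted p = 2.64e-07). Cd70 was counted 0, 1 and 1 times in the joint and 1, 0 and 0 times in the skin steady-state libraries, all at or below the floor of 3 counts. Against that floor, taken as the highest CPM that 3 counts gave in any library of the group, Cd70 was at least 13.6-fold higher in joint migrated and at least 20.2-fold higher in skin migrated cells, with adjusted p of 6.19e-06 and 7.33e-07. Cd70 passed the filter on low counts only through the migrated libraries, where it was high, so its tests and its place among the 9 called rest on that filter.

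Cd40 and Cd200 were well above the floor in the steady-state nodes. Cd40 was at 43.2, 38.5 and 44.3 CPM in the joint and 39.3, 36.1 and 29.7 CPM in the skin steady-state node, and every inflamed migrated library was higher. It rose 2.78-fold, 1.47 (SE 0.26, adjusted p = 0.000375), and 4.63-fold, 2.21 (SE 0.27, adjusted p = 8.56e-06). Cd200 was at 28.9, 22.4 and 27.1 CPM and 29.8, 31.9 and 30.4 CPM, again below every migrated library. It rose 2.97-fold, 1.57 (SE 0.24, adjusted p = 0.000103), and 3.38-fold, 1.76 (SE 0.24, adjusted p = 2.5e-05). In the joint node, 7 to 9 of the ligands were called with 1 library left out. Cd40 lost its call without joint migrated replicate 2 or 3 or any 1 of the joint steady-state libraries (adjusted p of 0.0019 to 0.00328), and Cd200 lost its call without joint steady-state replicate 2 (0.00122), and both lost it in a fit of the 6 joint node libraries alone. Their adjusted p ranged over all alternatives from 1.79e-08 to 0.00332 and from 7.93e-10 to 0.00166. The other 7 kept their calls in all alternatives run, and in the skin node all 9 did.

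**Figure D4:**
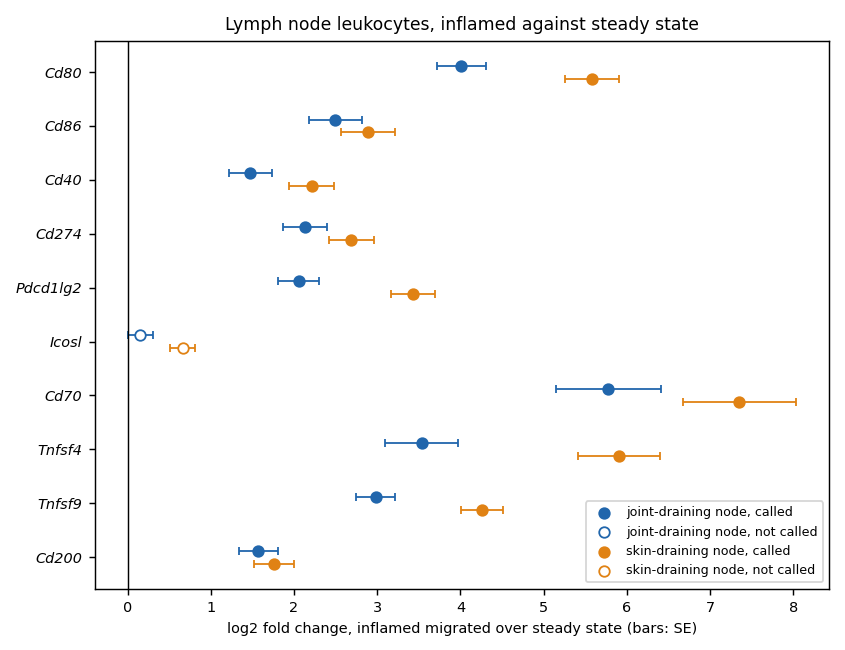
Log2 fold change of inflamed migrated over steady-state lymph node cells for each ligand gene, in the joint-draining node (blue) and the skin-draining node (orange), with bars for the SE. All genes but Icosl are filled (called) at both nodes, from 1.47 for Cd40 in the joint node to 7.35 for Cd70 in the skin node, where the steady-state counts were 0 or 1. Inflammation cannot be told apart from what the steady-state titles PBS and KG (joint) and Naive (skin) stand for.

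Between the steady-state nodes of the 2 sites, 0 of the 10 ligands were called by edgeR, against 1.44% of all genes, and 0 at an adjusted p under 0.05, against 3.89%. The joint libraries are titled PBS and KG and the skin libraries Naive, so site and the handling of the mice or cells cannot be told apart here. At an unadjusted p under 0.05 by edgeR there were 2 of the 10 ligands, Cd80 and Tnfsf9, against 3708 of 17107 genes. DESeq2 called 0 ligands, against 490 of 17107 genes. Cd80 differed most among genes above the floor, at 1.04 (SE 0.33, adjusted p = 0.0788) for joint over skin, with groups that did not overlap. For Cd86 the value was -0.01 (SE 0.31, adjusted p = 0.995) with a 95% interval of -0.68 to 0.66, and for Cd274 it was 0.16 (SE 0.25, adjusted p = 0.778) with an interval of -0.39 to 0.71. The comparisons of inflamed with steady-state nodes share the migrated libraries with the migration comparisons, so the 2 sets of values are not independent.

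Ratios within a library do not depend on library size, and were taken for the pairs that share receptors, as counts per kb of exon. The ratio of Cd80 to Cd86 was 0.332 in joint nonmigrated and 0.225 in joint migrated cells (geometric means, n = 3 each), and 0.429 in skin nonmigrated and 0.241 in skin migrated cells. It was 0.0758 in the joint and 0.0365 in the skin steady-state node. The migrated libraries were below the nonmigrated ones and above the steady-state ones at each site, without overlap. On the log2 scale the ratio differed by -0.56 between joint migrated and nonmigrated cells, by -0.83 in the skin, and by 1.57 and 2.73 between inflamed migrated and steady-state cells of the joint and skin nodes.

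The ratio of Cd274 to Pdcd1lg2 was 8.16 in joint nonmigrated, 5.68 in joint migrated, 12.3 in skin nonmigrated and 3.95 in skin migrated cells, and 5.57 and 6.56 in the joint and skin steady-state nodes. It differed by -1.64 on the log2 scale between skin migrated and nonmigrated cells and by -0.52 in the joint, without overlap at either site. Between inflamed migrated and steady-state cells it differed by 0.03 in the joint node, where the libraries overlapped, and by -0.73 in the skin node, where they did not. Of 14 such comparisons, 9 had groups that did not overlap. Each of these had an exact two-sided permutation p of 0.1, the smallest that 3 libraries against 3 allow, and 0.156 after Benjamini-Hochberg adjustment over the 14, so that the design could not reach 0.05.

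**Figure D5:**
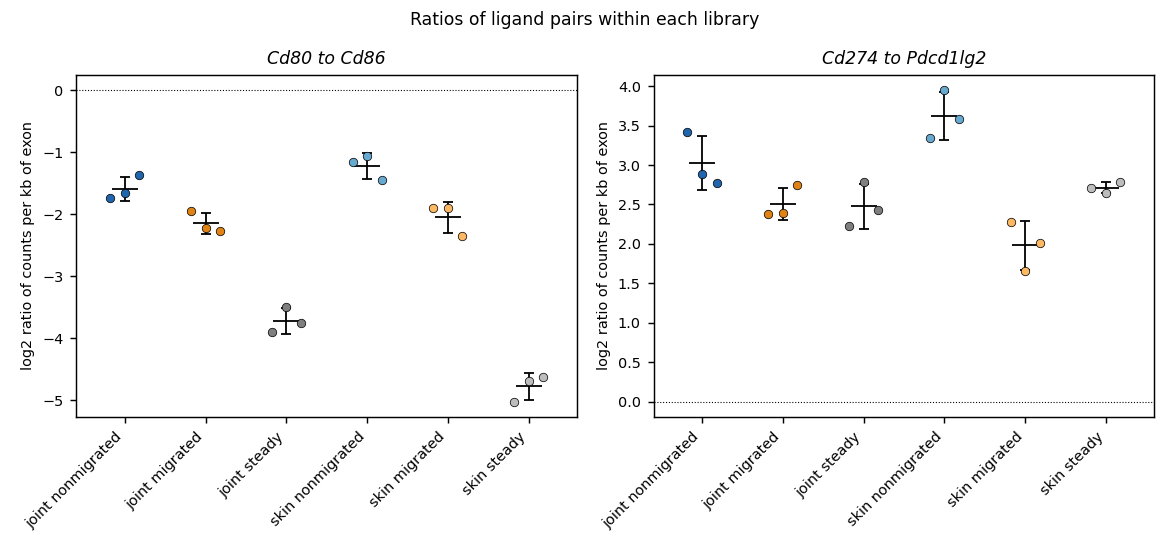
Log2 ratio of Cd80 to Cd86 (left) and of Cd274 to Pdcd1lg2 (right), as counts per kb of exon, in each library. Points are replicates, bars are the mean and SD, and the dotted line marks a ratio of 1. The left panel falls from the tissues through the migrated cells to the steady-state nodes. In the right panel skin nonmigrated cells have the highest mean, overlapping joint nonmigrated cells. Skin migrated cells have the lowest mean, overlapping the joint steady-state node.

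The receptors of these ligands, 9 genes carried mostly by T cells, were counted in the same libraries. With migration in the joint, 4 of the 9 were higher (Cd28, Icos, Cd27 and Tnfrsf4) and 1 lower (Cd200r1), with a median log2 fold change of 2.06, against 8.8% of all genes called higher, 12.6% called lower and a median of 0.02. Icos, the receptor of ICOS ligand, rose by 2.89 (SE 0.52, adjusted p = 0.000623), and Tnfrsf4, which encodes OX40, by 3.28 (SE 0.42, adjusted p = 5.35e-05). Cd200r1, the receptor of CD200 on myeloid cells, fell by 2.28 (SE 0.24, adjusted p = 1.43e-05) on the log2 scale. With migration in the skin, 1 was higher (Cd27, 3.13 (SE 0.27, adjusted p = 3.39e-06)) and 1 lower (Cd200r1, -2.46 (SE 0.25, adjusted p = 9.99e-06)), against 8.49% and 12.4% of all genes. T cell markers (Cd3d, Cd3e, Cd3g, Cd4 and Cd8a) summed to between 117 and 242 CPM in joint nonmigrated and between 979 and 1334 CPM in joint migrated libraries, and to between 248 and 665 and between 1102 and 1158 CPM in their skin counterparts.

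Tnfrsf9, which encodes 4-1BB, was the 1 receptor of 9 called lower in the joint among nonmigrated cells, against 1.9% of all genes, at a mean of 284 CPM in the skin and 30.4 CPM in the joint, -3.23 (SE 0.40, adjusted p = 0.000299) for joint over skin. In inflamed migrated against steady-state cells, 5 of the 9 were higher in each node, against 12.4% of all genes in the joint node and 16.6% in the skin node, and they were the same genes: Ctla4, Icos, Pdcd1, Tnfrsf4 and Tnfrsf9. Tnfrsf9 rose by 2.49 (SE 0.16, adjusted p = 5.05e-08) in the joint node and 3.17 (SE 0.16, adjusted p = 4e-09) in the skin node. Cd28, which binds both Cd80 and Cd86 proteins, was at 0.49 (SE 0.21, adjusted p = 0.0663) and 0.32 (SE 0.21, adjusted p = 0.19), neither called.

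Of 9 further genes of costimulatory or coinhibitory ligands, not all of the B7 or TNF families, Vtcn1 and Tnfsf18 were too low to test in the inflamed libraries. With migration 0 of the 7 tested were higher and 4 were lower at each site, against 12.6% of all genes called lower in the joint and 12.4% in the skin. Cd276, which encodes B7-H3, fell by 3.07 (SE 0.36, adjusted p = 2.91e-05) in the joint on the log2 scale and fell by 2.40 (SE 0.36, adjusted p = 0.000173) in the skin. Vsir, which encodes the inhibitory ligand VISTA, fell by 1.81 (SE 0.17, adjusted p = 6.59e-06) in the joint and fell by 1.20 (SE 0.17, adjusted p = 0.000113) in the skin. Lgals9, which encodes galectin-9, was also lower at both sites, with Nectin2 lower in the joint and Tnfsf14 lower in the skin. Tnfsf14, which encodes LIGHT, and Nectin2, a ligand of DNAM-1, were higher in inflamed migrated than in steady-state cells of both nodes, at 1.52 (SE 0.19, adjusted p = 2.22e-05) and 1.96 (SE 0.20, adjusted p = 1.59e-06) for Tnfsf14. In the joint node Pvr, another ligand of DNAM-1, was higher as well, so that 3 of 8 tested were higher there and 2 of 8 in the skin node, against 12.4% and 16.6% of all genes.

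For each ligand with a mean of at least 1 CPM, the 3 protein-coding genes with the most similar pattern were listed by Pearson's r of log2(CPM + 1) over the 18 libraries, among 12144 genes. These are descriptions over libraries that share groups and cell composition. For Cd80 they were Ppfibp1 (r = 0.995), Src and Vdr. For Cd274 they were Bcl2l1 (r = 0.98), Dusp16 and Enah, and for Pdcd1lg2 they were Il12rb2 (r = 0.977), Plek2 and Rab9. For Icosl they were Swap70 (r = 0.991), Apobec3 and Il9r. For Tnfsf9 they were Ccl17 (r = 0.987), which encodes a chemokine of dendritic cells, Plekhg1 and Anxa4. The highest r was lower for Cd200, at 0.951 with Ikzf4, than for any other ligand listed, and Cd70 was under 1 CPM.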

How the data were processed

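Leukocytes from 6 groups of 3 libraries were profiled by paired-end 100 bp RNA-seq. The authors trimmed reads with Trim Galore, aligned them with TopHat2 to mm10 with version 87 of the Ensembl transcriptome, and deposited raw counts per gene made by HTSeq in its default mode. The 5 HTSeq summary rows, 11.3% to 15.1% of each library's total, were left out of library sizes and tests. Groups came from the sample labels. Of the 49585 genes 49326 matched GENCODE M21, which gave symbols and exon lengths.

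Counts were tested with edgeR 4.0.16 (TMM, filterByExpr with a minimum count of 10, quasi-likelihood test) in R 4.3.3 with limma 3.58.1, with group as the only term. The 12 inflamed libraries and the 12 lymph node libraries were fitted separately. A fit of all libraries, of the compared groups only, with a replicate block, with DESeq2 1.42.0 or its size factors, without the filter, at an adjusted p under 0.05, and without each library in turn were alternatives. The steps were tested on simulated data with known changes and the same spread between libraries for every gene. That checked the steps, and does not show how the tests behave on libraries that differ in cell make-up. Ratios were compared by an exact permutation test. The 10 genes, the receptor, ligand and marker lists, and the thresholds were chosen with earlier results of these data known. All 10 genes and every receptor or further ligand called in a comparison could be named.

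Same-group libraries differed far beyond counting error (a chi-square of 16.2 to 129.6 for each degree of freedom), so no 2 were treated as one. A count of 3, the floor, equals 0.0685 to 0.156 CPM before TMM scaling and covers counting error only. HTSeq's default counts by strand, but whether the libraries kept the strand is not given in the sources used here, nor are version numbers of the aligner and counter.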

Additional observations from a re-analysis of the deposited data

Results flagged for a closer look

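The change with migration differed between joint and skin for 3 of the 10 ligands at an adjusted p under 0.05 in the interaction of site and migration (edgeR's quasi-likelihood test, Benjamini-Hochberg adjustment over 16777 genes). For Cd274 the joint change exceeded the skin change by 2.88 on the log2 scale (SE 0.50, adjusted p = 0.0069), with every skin migrated library below every skin nonmigrated one and overlapping joint libraries. For Cd200 the difference was 3.06 (SE 0.49, adjusted p = 0.0048), and migrated libraries were above nonmigrated ones at both sites. For Pdcd1lg2 it was 1.71 (SE 0.47, adjusted p = 0.0471), with migrated libraries below nonmigrated ones in the skin and overlapping in the joint. None of the 3 passed 0.001 in this fit.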

How the results depend on the processing

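No alternative removed the calls of the 9 ligands in the skin node, of 7 of the 9 in the joint node (Cd40 and Cd200 lost theirs in some), of Icosl in both migration comparisons or of Cd200 with migration in the joint. Of the alternatives run for single ligands, 1012 left the direction and the call as they were, 28 added a call, 31 removed one and 17 turned a sign. The counts of ligands called moved as follows. At an adjusted p under 0.05, 5 were called in joint against skin nonmigrated cells and 3 in the interaction of site and migration. In the interaction 2 were called by the DESeq2 Wald test, 2 without the filter on low counts and 2 with all 18 libraries in one fit. With only the groups compared in the fit, 0 were called in joint against skin nonmigrated cells. With 1 library left out the counts were 2 to 5 in the joint migration comparison (2 without joint migrated replicate 2, where Tnfsf4 and Tnfsf9 lost their calls), 0 to 4 in joint against skin nonmigrated cells and 0 to 1 in the interaction, where Cd274 was called without skin nonmigrated replicate 3 (adjusted p = 0.00081). The cause was not tested.

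Signs turned only for values near 0. Leaving out 1 library gave -0.56 to 0.066 for Cd80 and -0.055 to 0.58 for Cd274 with migration in the joint, -0.25 to 0.15 for Cd86 with migration in the skin, -0.17 to 0.39 for Cd40 and -0.10 to 0.27 for Icosl in the interaction, and -0.048 to 0.0041 for Cd86 between steady-state nodes. For the log2 ratio of Cd274 to Pdcd1lg2 in the joint node it gave -0.096 to 0.18. Cd86 between steady-state nodes was 0.0014 with DESeq2's size factors, 0.0016 with DESeq2's test and 0.0085 without the filter, and Cd86 with migration in the skin was 0.00014 with all libraries in one fit.

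Replicate numbers are shared across groups, but no comparison had all 3 correlations of deviations between same-numbered libraries over 0.1, so the numbers were not taken as pairs. With the replicate block, 3 ligands were called in the joint migration comparison (Tnfsf4 was lost, at 3.06 and an adjusted p = 0.0014), 1 in the skin (Icosl; Cd274 was lost, at -2.56 and an adjusted p = 0.00128), 2 in joint against skin nonmigrated cells (Pdcd1lg2 was lost, at -2.70 and an adjusted p = 0.0014), and the difference for Cd40 in the interaction was -0.032. The block left both lymph node counts at 9. In both migration comparisons every library correlated best with its own number.

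Over all genes, calls in joint against skin nonmigrated cells numbered 511, and 1550 by DESeq2, 1014 without the filter, 1104 with all libraries, 304 with the block and 0 with only those groups. In the interaction they numbered 20, and 661, 290, 301 and 1 under the first 4 of these. In joint against skin migrated cells they numbered 0, and 177, 61, 38 and 10. Between steady-state nodes they numbered 246, and 490 by DESeq2 and 521 without the filter, and with skin migration 3508, and 2111 with only those groups. Cd70 could not be fitted with only the nonmigrated or only the steady-state groups, where it did not pass the filter, and Tnfsf4 in joint nonmigrated and both steady-state groups and Cd70 in the 4 groups other than the migrated ones rest on under 30 reads a library, which limits their folds.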

Other observations

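Levels of the other ligands and receptors in the inflamed tissues followed no single order. Vsir was at a mean of 737 CPM in joint nonmigrated and 453 CPM in skin nonmigrated cells, with a log2 fold change of 0.70 for joint over skin (SE 0.17, adjusted p = 0.0109 by edgeR), a direction opposite to those of Cd274, Pdcd1lg2 and Cd200. Tnfsf14 was at 22.2 CPM in joint nonmigrated and 52.1 CPM in skin nonmigrated cells (-1.24, SE 0.21, adjusted p = 0.00202). In the skin, Tnfrsf9 was at a mean of 284 CPM in nonmigrated and 121 CPM in migrated cells, -1.24 on the log2 scale (SE 0.37, adjusted p = 0.0129). In the joint it was at 30.4 CPM in nonmigrated and 90.2 CPM in migrated cells (1.57, SE 0.37, adjusted p = 0.00373). The difference between these changes was 2.81 (SE 0.52, adjusted p = 0.00936). Skin nonmigrated cells thus held the highest mean of both Tnfrsf9 and Cd274 among the 6 groups, and none of these 5 comparisons passed an adjusted p under 0.001.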
